A study of Homo sapiens with 24 samples.

Results

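The aminoacyl-tRNA synthetase genes are the 36 genes of the count table whose symbols name the enzymes that charge tRNAs, taken by symbol and without regard to their levels. They comprise 20 cytosolic enzymes and 16 mitochondrial enzymes, the latter with symbols ending in 2. They fill 37 of 48162 gene rows, because SARS2 stands on 2 rows. Each enzyme joins an amino acid to its tRNA before the ribosome can use it, and the enzymes fall into class I and class II by the fold of the active site. Several cytosolic enzymes sit together in the multisynthetase complex, GARS and KARS serve both the cytosol and the mitochondrion, and the mitochondrial enzymes are encoded in the nucleus. Many cytosolic synthetase genes are known targets of ATF4, the transcription factor of the amino acid response.

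The study asked how polyploid giant cancer cells (PGCC) differ from the cells they arise from, and how both respond to LCL521, an inhibitor of the lysosomal enzyme acid ceramidase. All cells were PPC1, 1 established prostate cancer line, and RNA was sequenced from 4 groups of 6 libraries. UT were parental cells without radiation or drug, and UT_LCL were parental cells given 5 µM LCL521 for 5 h. PGCC were cells given 8 Gy on day 2, retained on a 20 micron strainer and harvested on day 5 by the labels, and PGCC_LCL had both the radiation and the same drug exposure. Radiation, retention on the strainer and ploidy cannot be told apart in these groups. In bulk RNA, a lower share of a transcript and a change in total RNA per cell cannot be told apart either.

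The 24 libraries held 14835246 to 19906601 counts each. The first principal component of all genes (55.9% of the variance) separated PGCC from parental libraries. The second (16.5%) set replicates 4 and 5 apart from the other 4 in every group: it stood at 48.9 or more in their parental libraries and at -21.1 or less in the other parental libraries. The counts of synthetase calls between populations are therefore also given without these replicates, with the members that changed. Of the epithelial markers, KRT8, KRT18 and KRT19 were present in all libraries, while EPCAM reached at most 0.852 CPM. CPM are counts per 1000000, with library totals adjusted by TMM scaling. KLK3, a marker of prostate luminal cells, was at 0 in all 24 libraries.

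Because ATF4 acts through a CCAAT enhancer-binding protein and ATF response element, promoter windows of the members were searched for the letters TGATGNAAT, which read ATTNCATCA on the opposite strand. The windows run from 250 bases before to 50 bases after each start in RefSeq (GRCh38.p14, a different build from the hg19 coordinates of the count table). Windows were found for 30 members, 16 cytosolic and 14 mitochondrial, with 39 windows in all. DARS, LARS, VARS, YARS, AARS2 and VARS2 had no entry. The letters occurred in 348 of all 35116 windows (0.991%) and in 2 member windows, those of GARS and TARS. Both are shown, as the member windows that held the letters, with the match in capitals. The windows of AARS, CARS and SARS held none. The GARS window, listed as GARS1, lies at chr7:30594628-30594927 on the plus strand with the match at bases -34 to -26 from the start. The TARS window, listed as TARS1, lies at chr5:33440715-33441014 on the plus strand with the match at bases 2 to 10 of the gene.
GARS: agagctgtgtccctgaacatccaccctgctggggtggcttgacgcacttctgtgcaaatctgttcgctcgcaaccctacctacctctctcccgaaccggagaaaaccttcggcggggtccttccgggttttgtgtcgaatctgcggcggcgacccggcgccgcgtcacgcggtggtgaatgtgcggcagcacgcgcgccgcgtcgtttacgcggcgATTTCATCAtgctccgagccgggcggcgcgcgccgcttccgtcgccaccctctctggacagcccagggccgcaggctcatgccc
TARS: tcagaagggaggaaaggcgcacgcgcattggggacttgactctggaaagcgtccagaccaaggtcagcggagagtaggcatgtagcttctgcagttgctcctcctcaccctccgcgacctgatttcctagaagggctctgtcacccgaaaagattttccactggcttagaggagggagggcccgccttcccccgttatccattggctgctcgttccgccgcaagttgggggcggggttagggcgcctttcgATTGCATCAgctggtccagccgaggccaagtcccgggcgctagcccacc
A match is a description of letters, and its absence says only that these letters are not in the window. None of the 43 windows of 27 known ATF4 target genes held them.

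In parental cells the cytosolic synthetases were the more abundant set. Levels can be compared between genes only per length, here as CPM divided by the gene's exon length in kilobases. The median over the 20 cytosolic members of the mean level in UT was 86.6 CPM per kb, against 12.3 over the 15 mitochondrial members other than SARS2. SARS (serine) was highest at 187 ± 76.3 CPM per kb (SD, n = 6), followed by AARS (alanine) at 161 ± 76.4, KARS (lysine) at 159 ± 10.7 and GARS (glycine) at 155 ± 81.0. The lowest cytosolic member was CARS (cysteine) at 16.4 ± 10.5 CPM per kb. Among mitochondrial members IARS2 (isoleucine) was highest at a mean of 66.6 CPM per kb and VARS2 (valine) lowest at 5.82. Of 34 pairs of neighbours in this order, 1 did not overlap across libraries, VARS and FARSB, so most neighbours cannot be ranked beyond their spread.

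**Figure D1:**
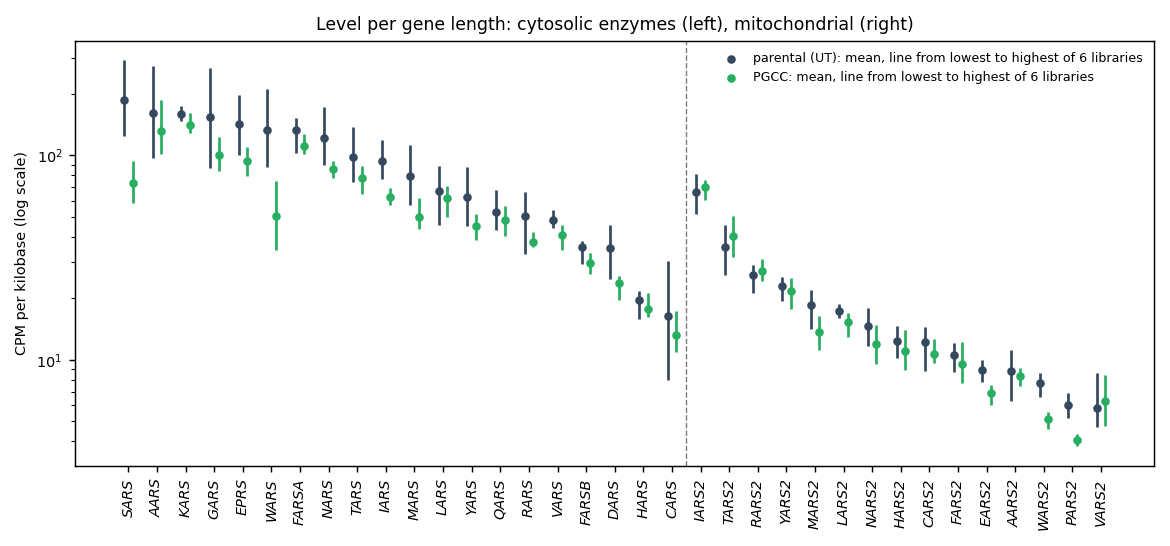
Level of each synthetase gene in UT and in PGCC, as CPM per kilobase of exon on a log axis, with cytosolic enzymes left of the dashed line and mitochondrial enzymes right; points are means and lines run from the lowest to the highest of 6 libraries. In UT, SARS is highest with a mean of 187 and VARS2 lowest with a mean of 5.82.

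SARS2, the mitochondrial serine enzyme, could not be measured. Its first row (ENSG00000104835) held 1 to 7 counts per library and the second (ENSG00000269547) held 0 in all 24 libraries. The floor was 3 counts, or 0.151 to 0.202 CPM by library total without TMM scaling. The rows overlap each other by 34452 bases on the same strand, so reads that fit both could have been left uncounted, which was not tested.

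PGCC had lower mRNA levels of 11 cytosolic and 4 mitochondrial synthetases than parental cells, and the cytosolic tryptophan and serine enzymes fell most. At an adjusted p (Benjamini-Hochberg over all 13812 genes tested, edgeR's quasi-likelihood test) under 0.05, 11 of 20 cytosolic members (55.0%) were lower in PGCC than in UT and 0 were higher. Over all genes, 24.3% were lower and 23.1% higher, 47.4% in all. Of the mitochondrial members, 4 of 15 tested (26.7%) were lower and 0 higher, a share near that of all genes. The median log2 fold change was -0.37 over cytosolic members, all 20 of which were below 0, -0.16 over mitochondrial members and -0.03 over all genes. Cytosolic members took 0.569% ± 0.149 (SD, n = 6) of all counts in UT and 0.434% ± 0.0452 in PGCC, and these ranges overlapped. Mitochondrial members took 0.0802% ± 0.00441 and 0.0823% ± 0.00395.

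WARS, the cytosolic tryptophan enzyme, fell most. Its levels in the 6 libraries were 271 CPM at the lowest, 363 at the median and 654 at the highest in UT, against 107, 145 and 232 in PGCC. Every PGCC library lay below every UT library, and the fall was 2.65-fold (log2 fold change -1.41, SE 0.244, adjusted p = 0.000331). SARS, the cytosolic serine enzyme, had levels of 235, 286 and 551 CPM in UT and 110, 132 and 176 in PGCC. Its groups did not overlap either, with a 2.53-fold fall (log2 -1.34, SE 0.226, adjusted p = 0.000261). IARS, the isoleucine enzyme of the multisynthetase complex, was the third cytosolic member whose groups were apart. It had 359, 420 and 555 CPM in UT and 265, 287 and 323 in PGCC, a 1.49-fold fall (log2 -0.57, SE 0.107, adjusted p = 0.000566). For each of these 3 genes the exact two-sided permutation test over the 924 divisions of 12 libraries gave p = 0.00216, the smallest it can give. Groups without overlap fix this value, so it adds nothing to the separation. The same separation, with PGCC lower, was present in 12.9% of all genes tested.

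Other enzymes of the complex moved by similar amounts with overlapping libraries. MARS, which charges the methionine tRNAs, had 206, 241 and 405 CPM in UT and 156, 173 and 223 in PGCC (log2 -0.65, SE 0.177, adjusted p = 0.00751). The gene DDIT3 overlaps it by 982 bases, and without knowledge of strand in the counting, reads in such an overlap cannot be assigned. EPRS, a single protein that charges both glutamate and proline tRNAs, had 505, 642 and 986 CPM in UT and 397, 466 and 549 in PGCC (log2 -0.60, SE 0.163, adjusted p = 0.00722). DARS, the aspartate enzyme, had 58.7, 81.2 and 108 CPM in UT and 46.3, 58.0 and 60.7 in PGCC (log2 -0.57, SE 0.133, adjusted p = 0.00293), with the highest PGCC library just above the lowest UT library. RARS, the arginine enzyme of the complex, also fell (log2 -0.40, adjusted p = 0.0432). Of the 8 enzymes of the complex, 5 fell, with a median of -0.49, and of the 12 outside it 6 fell, with a median of -0.32. By structural class, 6 of 9 class I and 4 of 10 class II cytosolic members fell, EPRS holding both kinds. These subsets overlap in members and their differences were not tested. Over all genes in the same fit, which includes replicates 4 and 5, 24.3% were lower.

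The remaining cytosolic falls were NARS (asparagine) at log2 -0.50 (adjusted p = 0.0174), YARS (tyrosine) at -0.46 (adjusted p = 0.0321), FARSB (the beta subunit for phenylalanine) at -0.26 (adjusted p = 0.0195) and VARS (valine) at -0.23 (adjusted p = 0.037). VARS did not pass in any fit that left out 1 replicate (adjusted p 0.0543 to 0.0723), nor RARS in 4 of the 6. Not past the threshold were GARS, TARS, CARS, AARS, FARSA, KARS, HARS, QARS and LARS. GARS, one of the pair that serve both compartments, had 228, 295 and 704 CPM in UT and 221, 259 and 323 in PGCC (log2 -0.61, SE 0.27, adjusted p = 0.0765). KARS, the other, had 320, 347 and 380 CPM in UT and 280, 306 and 350 in PGCC (log2 -0.16, SE 0.0697, adjusted p = 0.0712). The large GARS estimate stood beside a wide spread in UT, and the small KARS estimate beside a narrow one.

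**Figure D2:**
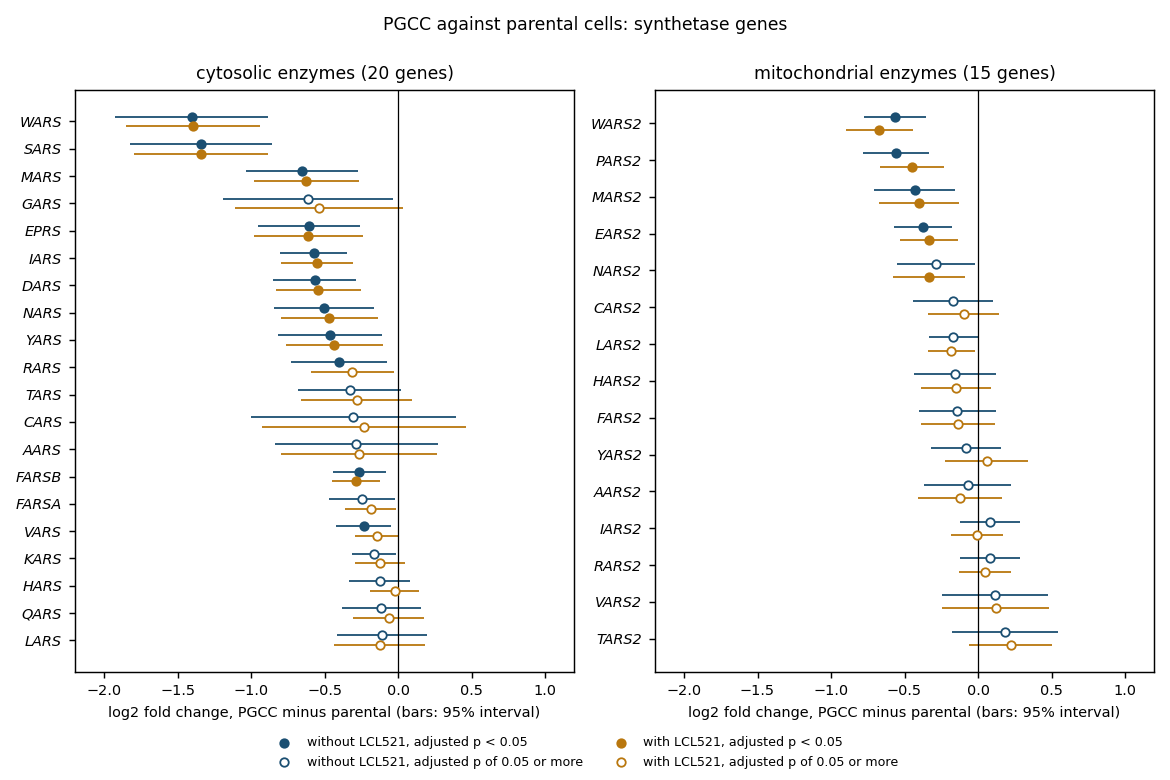
Log2 fold change of each synthetase gene, PGCC minus UT and PGCC_LCL minus UT_LCL, with 95% intervals from the edgeR fit of 12 libraries per comparison; filled points have an adjusted p under 0.05. WARS and SARS lie furthest below 0 at -1.41 and -1.34 in the first comparison, and TARS2 is the highest at 0.18.

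Among mitochondrial enzymes the tryptophan and proline enzymes fell most. WARS2 had 18.4, 21.6 and 24.4 CPM in UT and 12.9, 14.6 and 15.7 in PGCC, with no overlap (log2 -0.56, SE 0.0977, adjusted p = 0.00032). An antisense gene overlaps WARS2 by 276 bases. PARS2 had 12.2, 14.2 and 16.1 CPM in UT and 8.85, 9.41 and 10.2 in PGCC, also without overlap (log2 -0.56, SE 0.106, adjusted p = 0.000637). MARS2, for methionine, had 43.1, 56.7 and 66.4 CPM in UT and 33.7, 42.8 and 49.5 in PGCC, which overlapped (log2 -0.43, SE 0.13, adjusted p = 0.0137). EARS2, for glutamate, fell as well (log2 -0.37, SE 0.0922, adjusted p = 0.00442), and its groups did not overlap, though UBFD1 shares 661 bases with it. The other 11 mitochondrial members ranged from -0.29 (NARS2, adjusted p = 0.0701) to 0.18 (TARS2, adjusted p = 0.389). All 6 PGCC libraries lay below all 6 UT libraries for 3 cytosolic and 3 mitochondrial members, and for 12.9% of all genes tested.

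The histidine pair illustrates neighbours that cannot be cleanly separated. HARS and HARS2 lie head to head and share 599 bases. HARS had 55.1, 72.5 and 75.6 CPM in UT and 56.9, 60.3 and 74.4 in PGCC (log2 -0.12, adjusted p = 0.308), and HARS2 had 25.3, 30.8 and 36.4 CPM in UT and 22.1, 25.4 and 34.9 in PGCC (log2 -0.16, adjusted p = 0.345). The libraries of the groups overlapped for both genes. Among the 15 pairings of a cytosolic with a mitochondrial enzyme for the same amino acid, the ratio of levels per length separated the populations only for isoleucine. IARS stood at 1.42 ± 0.216 times IARS2 in UT (range 1.14 to 1.74) and at 0.902 ± 0.0989 times in PGCC (range 0.797 to 1.01). With LCL521 the ratio was 1.36 ± 0.188 in parental cells and 0.932 ± 0.0924 in PGCC, again without overlap. The ratio of WARS to WARS2 was 17.8 ± 7.36 in UT and 9.93 ± 3.65 in PGCC, and its ranges overlapped.

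**Figure D3:**
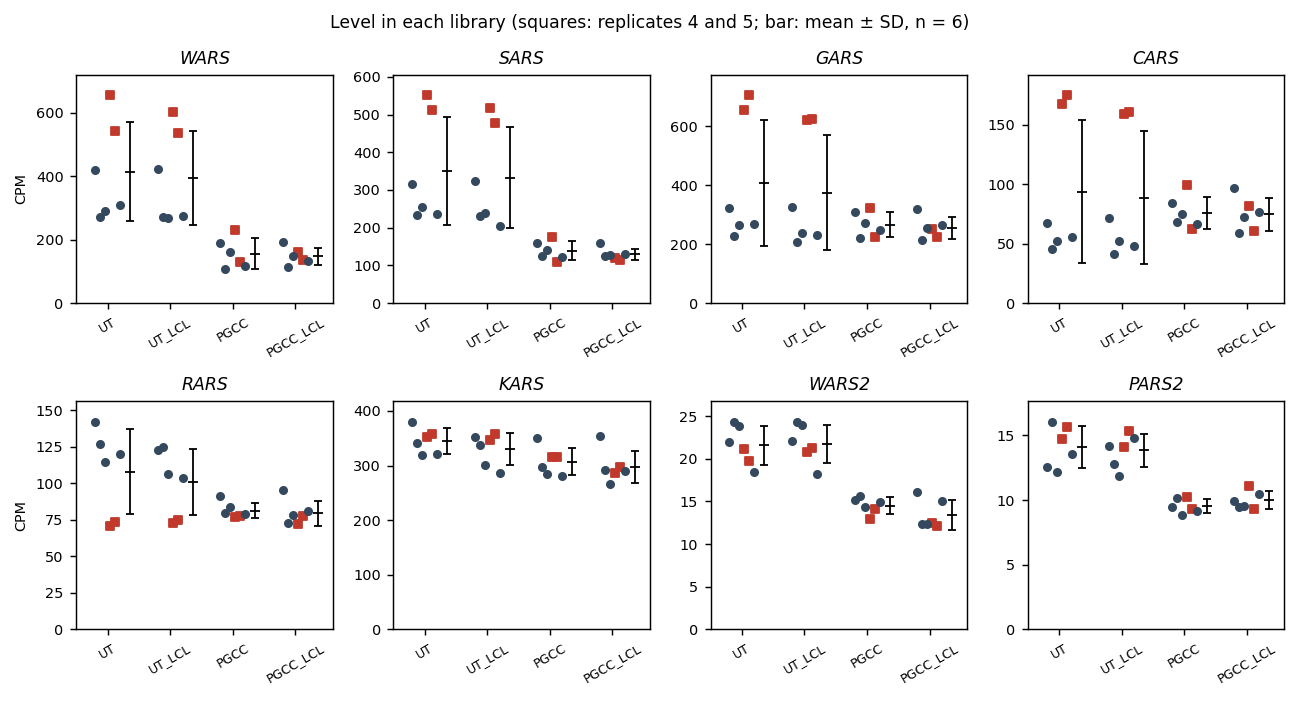
Level of selected synthetase genes in each of the 24 libraries, in CPM on linear axes that start at 0, by group; squares are replicates 4 and 5, circles the other replicates, and bars the mean ± SD of 6 libraries. WARS and SARS are lower in every PGCC library than in every UT library, and CARS and GARS are high in the UT libraries of replicates 4 and 5.

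The 4 groups were harvested in parallel in each of 6 repeats of the experiment. With the replicate number added as a block, the fit called 13 cytosolic and 5 mitochondrial members lower (28.3% of all genes lower, 27.9% higher). It held all 15 of the earlier calls and added FARSA (adjusted p = 0.0433), KARS (adjusted p = 0.02) and LARS2 (adjusted p = 0.0473). Scaling to library totals alone left 7 cytosolic falls, without FARSB, RARS, VARS and YARS, and moved the share of higher genes among all called genes from 48.7% to 60.2%.

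The same comparison between drug-treated populations used other libraries of the same harvests. With LCL521 in both, 9 of 20 cytosolic and 5 of 15 mitochondrial members were lower in PGCC and 0 were higher, where 23.9% of all 13818 genes tested were lower and 25.0% higher (48.9% in all). WARS had 268, 348 and 602 CPM in UT_LCL and 114, 142 and 192 in PGCC_LCL (log2 -1.39, SE 0.213, adjusted p = 9.8e-05). SARS had 206, 282 and 516 CPM in UT_LCL and 115, 126 and 159 in PGCC_LCL (log2 -1.34, SE 0.214, adjusted p = 0.000145). WARS2 had 18.2, 21.7 and 24.3 CPM in UT_LCL and 12.1, 12.4 and 16.1 in PGCC_LCL (log2 -0.67, SE 0.107, adjusted p = 0.000147). None of the 3 genes overlapped between the drug-treated groups, and all 6 libraries were lower for 3 cytosolic and 3 mitochondrial members against 13.7% of all genes. Of the calls, 13 were made in the same direction in both population comparisons. With the block, 10 cytosolic and 6 mitochondrial members were lower (26.8% of all genes lower, 29.5% higher). FARSA (adjusted p = 0.0324), RARS (adjusted p = 0.0349) and LARS2 (adjusted p = 0.0476) were gained, YARS was lost (adjusted p = 0.0504), and TARS2, the mitochondrial threonine enzyme, was called higher (log2 0.23, adjusted p = 0.0494).

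The parental level of most cytosolic synthetases was not the same in all replicates. In UT, replicates 4 and 5 were both above the other 4 replicates for 15 of 20 cytosolic members, against 25.2% of all genes. They were both below for 3 of 20 (RARS, FARSA and HARS), against 25.5% of all genes. Both were above for 15 of 20 in UT_LCL (23.5% of all genes). In PGCC this was so for 3 of 20 (21.6%) and in PGCC_LCL for 1 of 20 (19.5%). Among the 15 mitochondrial members in UT, 2 were higher and 4 lower in both replicates, against 25.2% and 25.5% of all genes. CARS, for cysteine, had 67.5, 45.8, 52.2, 167, 175 and 55.6 CPM in UT replicates 1 to 6. GARS had 323, 228, 266, 654, 704 and 267 CPM in the same libraries. RARS went the other way, at 142, 127, 114, 70.9, 73.7 and 120 CPM.

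The difference between populations within a replicate varied with this. For CARS the log2 difference of PGCC from UT was 0.318, 0.571, 0.519, -0.752, -1.48 and 0.267 in replicates 1 to 6. For GARS it was -0.0596, -0.05, 0.0292, -1.02, -1.64 and -0.116. For TARS it was within 0.0313 of 0 in replicates 1, 2, 3 and 6 and was -0.744 and -1.05 in replicates 4 and 5. For these 3 genes the differences below -0.5 were all in replicates 4 and 5, where the parental level was high. WARS was lower in all 6 pairs, by -1.14, -1.35, -0.855, -1.5, -2.05 and -1.39, and so was SARS, by -0.996, -0.919, -0.863, -1.64, -2.22 and -0.956. RARS had -0.644, -0.676, -0.446 and -0.598 in replicates 1, 2, 3 and 6, and 0.113 and 0.0702 in replicates 4 and 5. Altogether 11 of 20 cytosolic and 6 of 15 mitochondrial members were lower in 6 of 6 pairs, against 25.8% of all genes tested, and 0 were higher in 6 of 6 pairs, against 24.7%.

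**Figure D4:**
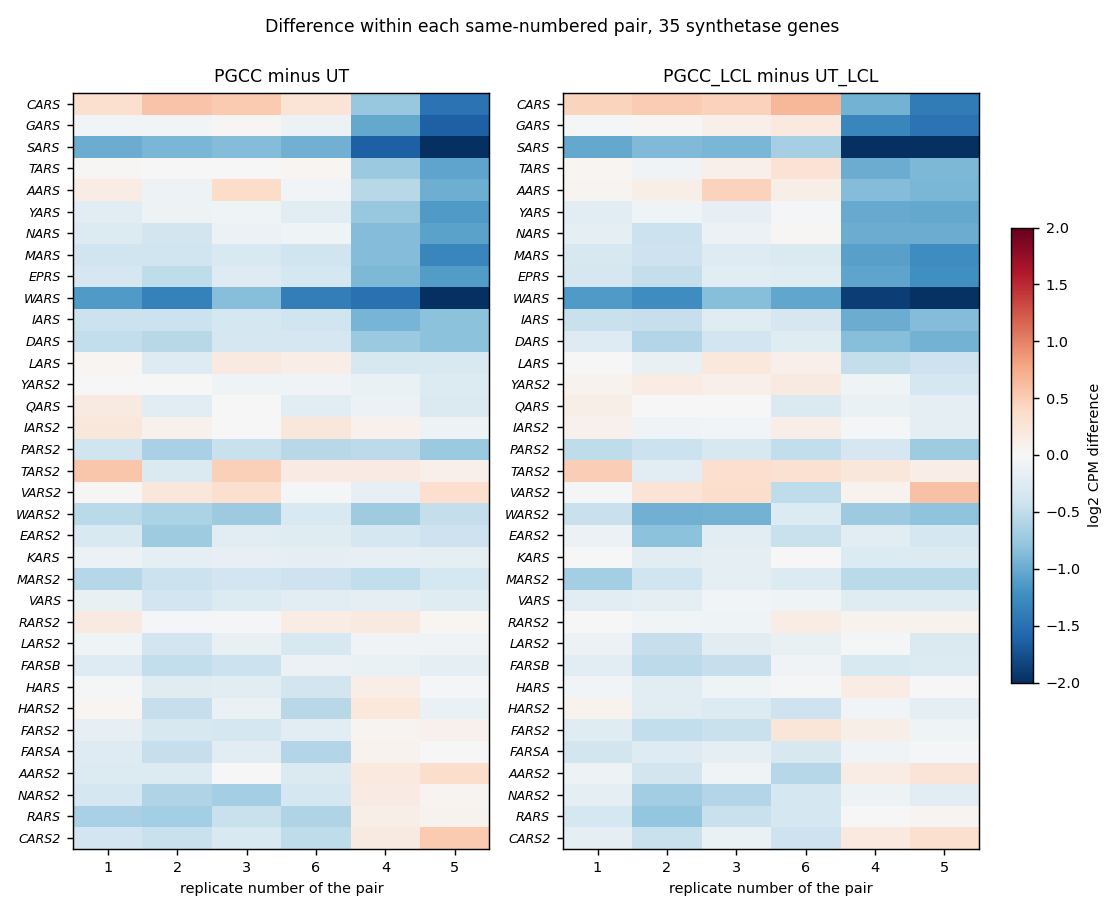
Log2 CPM difference within each replicate number for 35 synthetase genes, PGCC minus UT (left) and PGCC_LCL minus UT_LCL (right), blue for lower and red for higher in PGCC with colours that stop at -2 and 2, columns in the order 1, 2, 3, 6, 4, 5 and genes sorted by how far replicates 4 and 5 differ from the rest. On the left CARS runs from 0.571 in replicate 2 to -1.48 in replicate 5, RARS shows the opposite pattern, and WARS and SARS are below 0 in every column.

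Without replicates 4 and 5, 10 cytosolic members were lower, 1 was higher and 6 mitochondrial members were lower (26.9% of all genes lower, 27.7% higher). CARS was the member called higher (log2 0.43, SE 0.117, adjusted p = 0.00709). Of the 15 calls from all libraries 13 were made again, those lost being NARS (adjusted p = 0.0643) and YARS (adjusted p = 0.188), while FARSA, NARS2 and CARS2 were called lower in addition. WARS then stood at log2 -1.15 (adjusted p = 9.5e-05), SARS at -0.92 (adjusted p = 1.3e-05), MARS at -0.36 and EPRS at -0.34, while GARS stood at -0.03 (adjusted p = 0.832). The median of the cytosolic members was -0.21 and that of the mitochondrial members -0.25. With LCL521 in both populations the same fit called 8 cytosolic and 6 mitochondrial members lower (24.6% of all genes lower, 27.9% higher), and CARS again higher (log2 0.55, adjusted p = 0.0126). EPRS (log2 -0.29, adjusted p = 0.0727), NARS and YARS lost their calls there, and FARSA, RARS and CARS2 gained one.

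LCL521 for 5 h left no called change among the synthetases. In parental cells 0 of 35 members passed the threshold by edgeR or by DESeq2, and 0 had an unadjusted p under 0.05 in edgeR. Over all 13277 genes tested, 0% were called by edgeR, with 71 at an unadjusted p under 0.05. Member log2 fold changes lay between -0.12 and 0.12, and their 95% intervals between -1.04 and 0.89. In PGCC 0 of 35 members passed by either tool and 0 had an unadjusted p under 0.05, where 0.00707% of 14151 genes were called and 218 had an unadjusted p under 0.05. There the log2 fold changes lay between -0.13 and 0.11 and the intervals between -0.44 and 0.40. Both sets of intervals come from fits without the block, which count differences between replicates as error. The wider parental intervals thus include the spread between replicates that UT and UT_LCL share. Within same-numbered pairs, the log2 difference of UT_LCL from UT was -0.202 to 0.081 for CARS and -0.207 to 0.00995 for GARS. With the replicate block, 0 members were called in either population (0.866% of all genes in parental cells and 1.65% in PGCC), and 6 and 2 members had an unadjusted p under 0.05. The 71 and 218 genes above belong to the fits without the block. These 6 and 2 members therefore have no share of all genes beside them and are not read further. The smallest adjusted p with the block was 0.204 in each.

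The estimates for cytosolic members were small but mostly on 1 side of 0. In parental cells 19 of 20 were below 0 with a median of -0.06, where 50.1% of all genes were below 0. In PGCC 18 of 20 were below 0 with a median of -0.04, where 51.3% of all genes were. Members share libraries and scaling, so these counts are a description and carry no test. The members with the smallest p in parental cells were HARS (log2 -0.11, unadjusted p = 0.294 in edgeR's fit across all genes), YARS2 (-0.09) and FARS2 (-0.11). HARS had 55.1 to 75.6 CPM in UT and 54.3 to 70.5 in UT_LCL, which overlapped. In PGCC they were FARSB (-0.10), FARS2 (-0.13) and WARS2 (-0.11), each with an adjusted p of 1.0. FARSB had 88.7 to 112 CPM in PGCC and 86.0 to 100 in PGCC_LCL, which overlapped as well. No difference in the effect of LCL521 between the populations was called: 0 members and 0% of 14555 genes passed in the interaction of the 24-library fit, with 0 members and 60 genes at an unadjusted p under 0.05. The member interactions ranged from -0.12 to 0.12 on the log2 scale, with intervals from -0.96 to 1.06.

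**Figure D5:**
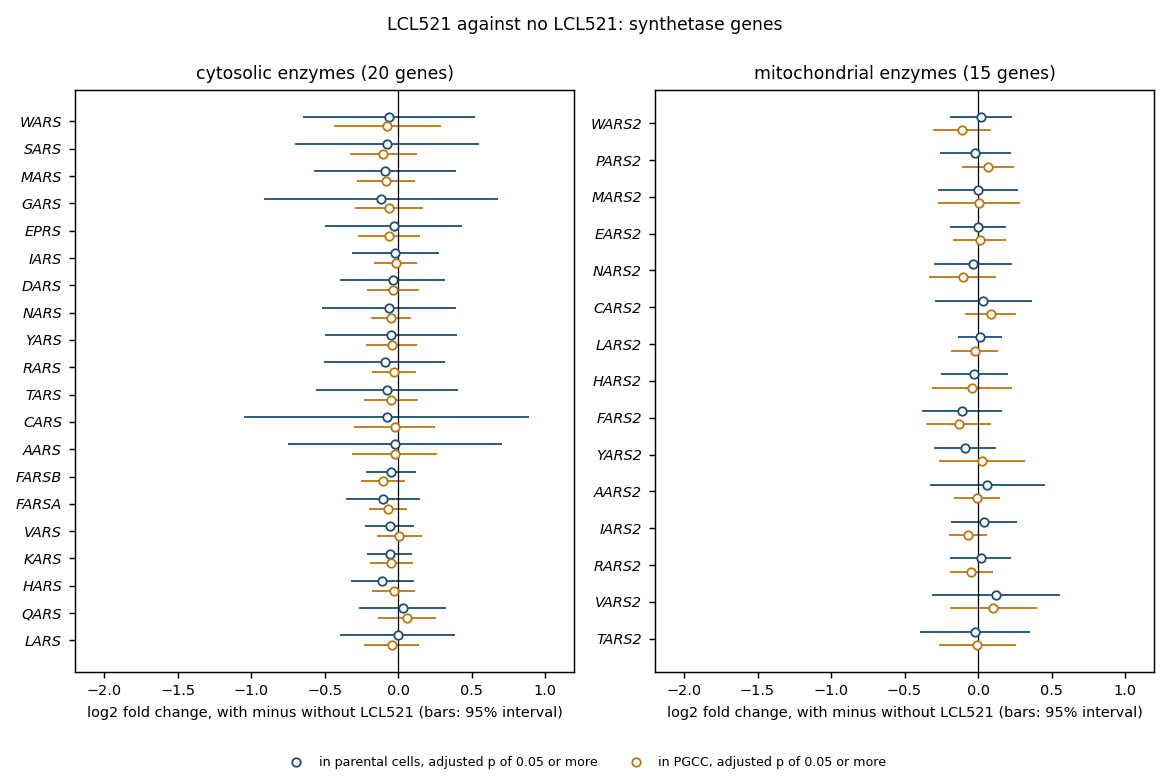
Log2 fold change of each synthetase gene with LCL521 in parental cells and in PGCC, with 95% intervals from the edgeR fits without the replicate block. All estimates lie between -0.13 and 0.12 and every interval includes 0.

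Genes that work with the synthetases were taken from lists, and those named are the called genes of each list with the largest changes in either direction. The counts below stand beside 24.3% of all genes lower and 23.1% higher in PGCC than in UT. The 3 scaffold proteins of the multisynthetase complex were all lower in PGCC than in UT: AIMP1 (log2 -0.74, adjusted p = 3.12e-06), AIMP2 (-0.44) and EEF1E1 (-0.38, adjusted p = 0.014). AIMP1 had 53.1 to 66.9 CPM in UT and 33.5 to 36.8 in PGCC, without overlap. Of 4 tested partners of mitochondrial charging, 2 were lower: QRSL1 (log2 -0.48), a subunit of the amidotransferase that makes glutaminyl-tRNA, and GATC (-0.36), another subunit. Of 14 genes that export, mature, proofread or deliver tRNAs, 10 were lower and 0 higher. EEF1A1, which carries charged tRNA to the ribosome, had 10800 to 13800 CPM in UT and 5100 to 6330 in PGCC (log2 -1.07, adjusted p = 2.7e-07), and it has many near-identical processed copies among which reads can be split. DTD1, which removes D-amino acids from tRNA, was at -0.92 (adjusted p = 3.72e-07), and ELAC1, a tRNA-processing nuclease, was also at -0.92.

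Among 6 regulators, MYC was lower (log2 -0.89, adjusted p = 0.000263), and EIF2AK3, the kinase PERK of the unfolded protein response, was higher (0.68, adjusted p = 0.00294). ATF4 mRNA ranged from 170 to 783 CPM in UT and from 227 to 331 in PGCC (log2 -0.46, adjusted p = 0.324). Without replicates 4 and 5 it was higher in PGCC (log2 0.46, adjusted p = 0.000677). Of 34 other genes of the ATF4 amino acid response, 16 were lower and 3 higher with all libraries, against 24.3% and 23.1% of all genes. Without replicates 4 and 5, 16 were lower and 13 higher, against 26.9% and 27.7% of all genes. In UT, replicates 4 and 5 were both above the others for 31 of these 34 genes, and in PGCC for 4, against 25.2% and 21.6% of all genes. ASNS, asparagine synthetase, had 384 to 856 CPM in UT and 72.2 to 196 in PGCC (log2 -2.23, adjusted p = 2.02e-05). PCK2 was at -2.28 and TRIB3 at -2.05. CTH, an enzyme of cysteine synthesis, was higher (log2 1.37, adjusted p = 0.0374), as were ATF3 (2.03) and PSPH (0.47). The part of this response in the levels of the synthetases was not tested.

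WARS is also known to be induced by interferon, and a list of 14 interferon genes was read beside it. Of the 9 that were tested, 8 were higher in PGCC than in UT and 0 lower, where 23.1% of all genes were higher and 24.3% lower. Among them were GBP1 (log2 2.86), GBP2 (2.41) and OAS1 (1.91). The part of interferon in the WARS level was not tested. GBP1 had 0.058 to 1.96 CPM in UT and 1.85 to 10.1 in PGCC, which overlapped, and its lowest UT level was below the floor. GBP2 had 0.987 to 3.74 CPM in UT and 10.3 to 17.8 in PGCC, without overlap. Markers of other cells moved with population too. PTPRC, a leukocyte marker, had 0.406 to 2.74 CPM in UT and 2.34 to 4.03 in PGCC (log2 1.39, adjusted p = 0.0164), and the 5 immune markers together summed to 0.464 to 2.97 CPM in UT and 2.84 to 4.43 in PGCC, with 3 and 2 of them at 0 throughout. The 6 fibroblast markers summed to 52.4 to 134 CPM and 83.3 to 209 CPM, mostly from COL1A2. Of the 3 tested, COL1A2 (log2 0.82) and COL3A1 (1.02) were higher, and COL1A1 was at -0.23 (adjusted p = 0.4). The part of these markers in the synthetase differences was not tested.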

How the data were processed

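RNA was sequenced from 24 libraries of PPC1 cells in 4 groups of 6. The deposited values are whole-number counts per gene, not normalized, which the authors made with STAR and HTSeq on hg19 (per the labels' processing notes). The strand and overlap settings of the counting are not given in the sources used here. CPM values used library totals over the genes kept by the filter, adjusted by TMM factors of all 24 libraries. In all, 0 other columns of samples were left out. At 14835246 to 19906601 counts per library, 3 counts correspond to 0.151 to 0.202 CPM without the TMM factors, which covers counting error only.

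Groups were compared with edgeR 4.0.16 (limma 3.58.1, R 4.3.3), quasi-likelihood test, TMM scaling, filterByExpr (minimum count 10, total 15), and Benjamini-Hochberg adjustment over all genes tested at 0.05, with 12 libraries per comparison and all 24 for the interaction. Differences within replicates used log2 CPM with a prior count of 2. Alternatives were DESeq2 1.42.0, other scaling, no filter, a replicate block with and without a length correction, and leaving out replicates. Scripts were tested on simulated data. The design text gives 6 repeats with parallel harvests, without saying that a library's number marks the repeat. Deviations of same-numbered libraries from group means correlated above 0.1 in 6 of 6 pairs of each comparison (lowest 0.237, 0.171, 0.458 and 0.385). The best correlation was with the library's own number for 5 of 6 PGCC libraries against UT. It was so for 3 of 6 PGCC_LCL libraries against UT_LCL, and for 6 of 6 in each LCL521 comparison. The pairing is thus less clear between populations, above all with LCL521.

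Members and gene lists were chosen with earlier results of these data known. Named with full values were the 6 cytosolic and 3 mitochondrial members with the largest falls past the threshold, GARS, KARS, the histidine pair, and 3 members with the smallest p per LCL521 comparison. Others named, such as CARS, TARS and RARS, were chosen after their values were seen. Protein sequences were not used here. Some marker genes are not reported here.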

Additional observations from a re-analysis of the deposited data

Results flagged for a closer look

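In 64 groups of 6 libraries of the members named, 4 held a library that stood apart from the other 5 by Dixon's criterion at its 95% level, where chance alone gives about 1 in 20. FARSB was low in replicate 6 of UT, at 99.5 CPM against 118 to 129 in the others (gap share 0.659), and in replicate 6 of UT_LCL, at 94.2 CPM against 117 to 125 (gap share 0.763). DARS was high in replicate 1 of PGCC_LCL, at 67.6 CPM against 49.0 to 54.8 (gap share 0.651). SARS was high in the same library, at 159 CPM against 115 to 129 (gap share 0.64), and still below the lowest UT_LCL library at 206 CPM.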

How the results depend on the processing

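The count of cytosolic members lower in PGCC than in UT was 11 and fell to 7 with library totals. Over all 13812 genes tested, TMM scaling called 6541, of which 48.7% were higher. Library totals called 6341, of which 60.2% were higher, so calls of lower genes fell over all genes too. Members called higher numbered 0, but 1 cytosolic member (CARS) without replicates 4 and 5 in both population comparisons, and 1 mitochondrial member (TARS2) with the replicate block under LCL521. Leaving out 1 replicate at a time gave 12 to 15 synthetase calls of 35 members (8 to 10 cytosolic, 4 to 5 mitochondrial), and 13 to 14 with LCL521 (8 to 9 and 4 to 6). Over all genes these fits called 5529 of 13891 (without replicate 1) to 6333 of 13809 (without replicate 4). With LCL521 they called 5734 of 13823 (without replicate 3) to 6339 of 13827 (without replicate 4). The calls lost were VARS in all 6 fits, RARS in 4, and FARSB, NARS and YARS in at least 1, and with LCL521 MARS2, NARS2, NARS and YARS. No LCL521 setting called a member. The cause of these changes was not tested.

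Estimates that changed sign, PGCC against UT, were AARS 0.115, CARS 0.428, LARS 0.0307 and TARS 0.0328 without replicates 4 and 5, CARS 0.0283 without replicate 5 (range without 1 replicate -0.426 to 0.0283), and AARS2 0.0221 and YARS2 0.0108 with library totals. With LCL521 in both populations they were AARS 0.211, CARS 0.549, GARS 0.102, LARS 0.0779, TARS 0.126 and IARS2 0.0551 without replicates 4 and 5, CARS 0.0752 without replicate 5 (range -0.383 to 0.0752), HARS 0.0299 and IARS2 0.0533 with library totals, HARS 0.00871 without replicate 2 (range -0.0518 to 0.00871), RARS2 -0.00173 with no filter, and IARS2 0.00126 with the block and 0.00137, 0.00279 and 0.0352 without replicates 3, 4 and 5 in turn (range -0.046 to 0.0352). Of these only CARS without replicates 4 and 5 passed the threshold.

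Without a filter GARS passed in both comparisons (log2 -0.63 against UT), VARS lost its call against UT (adjusted p = 0.051), RARS gained one under LCL521, and the median over all genes was 0.252, a set that holds many genes of few counts. Among the members, the block changed no call beyond those named above. Over all genes it raised the calls against UT from 6541 to 7765. RARS lost its call against UT with the RLE factors of edgeR. With LCL521 in both populations, DESeq2 called VARS and LARS2 in addition. The block with the length correction there called FARSA, RARS, VARS and LARS2 in addition.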
